A study of Homo sapiens with 2 samples.

Results

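The genes of 10 heterogeneous nuclear ribonucleoproteins (hnRNPs), HNRNPU, SYNCRIP, HNRNPR, HNRNPK, HNRNPC, HNRNPM, HNRNPL, HNRNPF, HNRNPH1 and PTBP1, were examined for peaks of Musashi-2 (MSI2) on their transcripts in NB4 cells, an established line of human acute promyelocytic leukaemia. They were 10 of the 8801 Ensembl gene IDs that had a peak in either of 2 CLIP-seq libraries, and their 123 peaks in replicate 1 and 123 peaks in replicate 2 were taken by gene ID from 25920 and 25243 peaks in all. HNRNPU and SYNCRIP were chosen by the readout itself, because they were among the gene IDs with the most peaks found in both libraries. The other 8 were added as members of the same family. CLIP-seq joins protein to RNA in living cells with ultraviolet light, recovers 1 protein with an antibody and sequences the RNA fragments that stay attached. Both libraries belonged to 1 group, each made from the same number of NB4 cells crosslinked at 400 mJ per square centimetre and recovered with the same antibody against MSI2. The labels name no genotype change and no treatment, and they number the replicates without saying that they came from separate cultures.

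MSI2 is a regulator of messenger RNA translation and stability that touches RNA through a pair of RNA recognition motifs and is best known from the 3' untranslated regions of its targets and from blood stem cells and myeloid leukaemia. The hnRNPs are abundant, mostly nuclear proteins that coat new transcripts and steer their splicing, export, stability and translation. Many of them bind their own or each other's transcripts, and SYNCRIP has been described as a protein partner of MSI2 in myeloid leukaemia.

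Each deposited peak has a position on the human genome build hg19, a strand, a p-value of the authors and a name that ends in a whole number. That number is called the tally here. No header or label explains it. It was 3 or more in every peak, and it was treated as a read-like number. Summed tallies were 155598 in replicate 1 and 133644 in replicate 2, and total sequencing depth is unknown. A peak that overlapped a peak of the other library by at least 1 nt, strand for strand, is called shared, and a shared peak of replicate 1 is called reproducible. No control antibody or input library was analysed here, so MSI2 binding and repeatable background cannot be told apart in any value below. With 1 group there was no contrast between conditions, and all comparisons with other gene IDs are descriptions without a test. Whether NB4 markers were expressed was not checked, because a peak list does not measure expression.

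All 10 genes had at least 3 peaks in each library and at least 1 reproducible peak. Of all 8801 gene IDs, 45.5% held a reproducible peak, and of the 2375 IDs with 3 or more peaks in each library, 92.5% did, so the count of 10 of 10 stands near the level for genes with that many peaks. The number of reproducible peaks was 15 in HNRNPU, 14 in SYNCRIP, 9 in HNRNPK, 8 in HNRNPM, 7 each in HNRNPL and HNRNPH1, 6 in HNRNPC, 5 in HNRNPR, 3 in HNRNPF and 1 in PTBP1. Without HNRNPU and SYNCRIP, which were picked for this number, the median over the other 8 genes was 6.5, against 3 over the 2375 IDs, and 6 of the 8 had 5 or more, against 18.6% of the 2375 IDs. These 8 genes also had more peaks to begin with, at a median of 10 against 6 in each library.

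In each library 75 of the 123 hnRNP peaks were shared, or 61.0% (95% Wilson interval 52.1% to 69.1%, which covers counting error only). Over all peaks 35.7% of replicate 1 and 37.3% of replicate 2 were shared. The first pair of genes was chosen for this, so the other 8 were also counted alone. They had 46 of 85 peaks shared in replicate 1, or 54.1% (43.6% to 64.3%), and 48 of 79 in replicate 2, or 60.8% (49.7% to 70.8%). Peaks of 1 gene come from 1 transcript population and are not independent of each other.

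**Figure D1:**
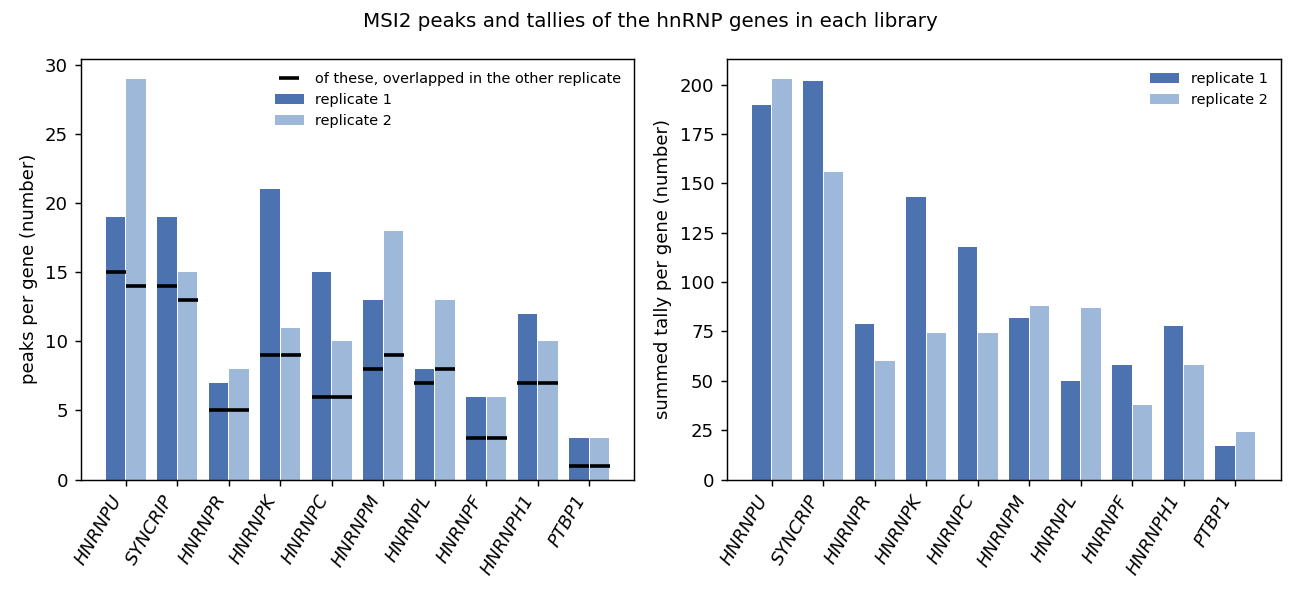
Peaks per gene (left) and summed tally per gene (right) for the 10 hnRNP genes in replicate 1 (dark bars) and replicate 2 (light bars), with black marks at the number of peaks shared with the other library. HNRNPU and SYNCRIP stand highest in summed tally in both libraries, and HNRNPK has 21 peaks in replicate 1 and 11 in replicate 2 with 9 shared in each.

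HNRNPU encodes a large nuclear protein, also known as scaffold attachment factor A, that binds RNA and chromatin. Its ID, ENSG00000153187.12, had 19 peaks in replicate 1 and 29 in replicate 2 on the minus strand of chromosome 1, from 245014592 to 245027379. Their tallies summed to 190 and 203, the 31st and 22nd highest sums among the 7252 and 7101 IDs of each list. With 15 reproducible peaks it stood 5th among all IDs, and 2 other IDs had the same number.

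The HNRNPU sites ran along most of the 12.8 kb between its outermost peaks, but much of the tally lay in the 3' part. Peaks at 245014660 to 245017741 carried 110 of the 190 tallies of replicate 1. Those at 245014592 to 245018727 carried 88 of the 203 of replicate 2. The reproducible peaks lay from 2.28 to 12.1 kb from the 3' end of that span, with a median of 5.57 kb, and none of the 15 lay in the 3'-most 10% of it. The strongest pair was at 245016833 to 245016912, with a tally of 41 and a deposited p of 4.18e-30 in replicate 1, and at 245016823 to 245016927 in replicate 2, where the tally was 35 and the p 1.20e-21. It held 21.6% of the gene's summed tally in replicate 1 and 17.2% in replicate 2. Next to it, a peak at 245017118 to 245017201 had a tally of 28 in replicate 1, while its partner in replicate 2 at 245017151 to 245017178 had a tally of 8. The first of these sites was thus of similar size in both libraries and the next one was not.

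Weaker HNRNPU sites recurred further 5' in the gene. A peak at 245019219 to 245019290 had tallies of 17 in replicate 1 and 13 in replicate 2. One at 245022584 to 245022629 had tallies of 8 and 12. Near the 5' end, the replicate 2 peak at 245026676 to 245026732, with a tally of 13, covered a pair of replicate 1 peaks with a tally of 4 each. The peaks found in 1 library alone did not reach the size of the strongest sites, but in replicate 1 they were not weak for the gene. The 4 in replicate 1 had tallies of 5 to 11, against a median of 7 over all 19 HNRNPU peaks there. The 15 in replicate 2 had tallies of 3 to 8, against a median of 5 over all 29. The additional peaks of replicate 2 in this gene were therefore all below a tally of 9, and the share of HNRNPU peaks that were shared was 78.9% in replicate 1 and 48.3% in replicate 2.

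Part of the HNRNPU signal was listed a second time under another gene ID on the same strand, ENSG00000188206.5. All 10 of that ID's peaks in replicate 2 and 6 of its 8 in replicate 1 had the same interval and the same tally as an HNRNPU peak, and in all 7 HNRNPU peaks of replicate 1 and 10 of replicate 2 touched it. These lay at 245014660 to 245017741 in replicate 1 and 245014592 to 245018727 in replicate 2, so they include the strongest site, and they carried 110 of the 190 tallies of replicate 1 and 88 of the 203 of replicate 2. To which of these IDs the signal belongs cannot be told apart. The deposited p differed between the IDs at an equal tally: the peak with a tally of 41 had a p of 4.18e-30 under HNRNPU and 6.21e-28 under the other ID. The 5' part of the gene, from 245018839 on in replicate 1, was listed under HNRNPU alone.

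SYNCRIP, also called hnRNP Q, binds messenger RNAs in nucleus and cytoplasm and acts on their stability, translation and sorting. Its ID, ENSG00000135316.12, had 19 peaks in replicate 1 and 15 in replicate 2 on the minus strand of chromosome 6, from 86318070 to 86350279. Tallies summed to 202 and 156, the 29th and 49th highest sums of each list. Its 14 reproducible peaks placed it 8th, level with 1 other ID.

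Relative to its longer span, the SYNCRIP sites were packed further into the 3' part than those of HNRNPU. In kb, the strongest SYNCRIP site lay 3.46 from the 3' end, against 2.28 in HNRNPU. The median reproducible SYNCRIP peak lay 3.41 kb from the 3' end of a span of 32.2 kb, and 6 of the 14 lay in the 3'-most 10%. A run of 4 sites stood side by side between 86321235 and 86321634. Their tallies, in replicate 1 and replicate 2, were 15 and 13 at 86321235 to 86321284, 16 and 12 at 86321418 to 86321457, 42 and 28 at 86321488 to 86321569, and 11 and 11 at 86321598 to 86321616. The third is the strongest of the gene, with a p of 4.38e-24 in replicate 1 and 8.07e-16 in replicate 2. Its peaks had the same 3' edge in both libraries. Each of the 4 was found in both libraries, with tallies in replicate 2 equal to or below those in replicate 1.

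The 3'-most SYNCRIP site went the other way. It had a tally of 7 at 86318073 to 86318102 in replicate 1 and of 19 at 86318070 to 86318196 in replicate 2. Only 2 reproducible peaks lay more than 7 kb from the 3' end, at 86329068 to 86329089, with a tally of 5 in both libraries, and at 86333814 to 86333819, with tallies of 5 and 8. Of the peaks found in 1 library alone, the 5 of replicate 1 had tallies of 6 to 11 and the 2 of replicate 2 had tallies of 6 and 7. Replicate 1 had a peak at 86350238 to 86350279, at the 5' end of the span, and replicate 2 one at 86350177 to 86350198, which lay 39 nt apart and so did not count as shared. In replicate 2 the shared peaks carried 91.7% of the SYNCRIP tally, and in replicate 1 they carried 80.2%.

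**Figure D2:**
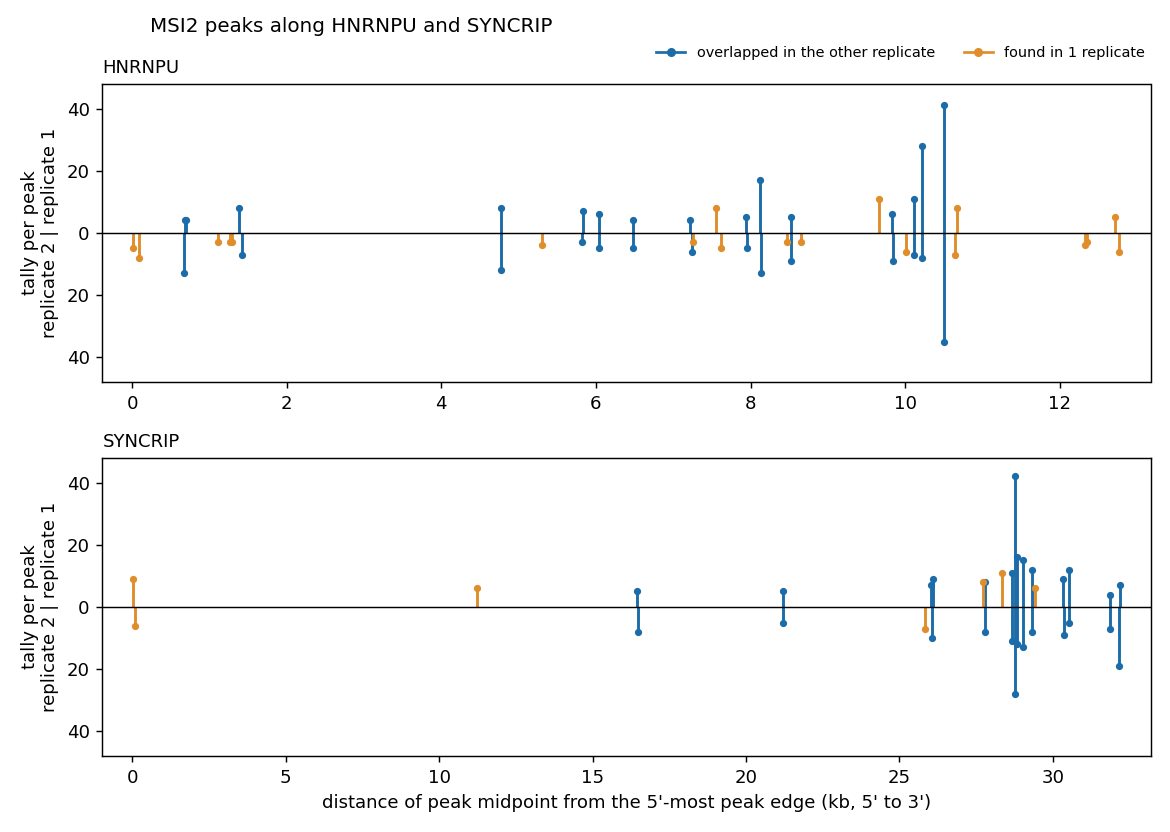
Peaks along HNRNPU (top) and SYNCRIP (bottom), placed by the distance of the peak's midpoint from the 5'-most peak edge in kb, with the tally of replicate 1 drawn upward and that of replicate 2 downward (blue, overlapped in the other library; orange, found in 1 library). HNRNPU sites run along most of its 12.8 kb span, while most SYNCRIP sites lie in the last 7 kb of its 32.2 kb span.

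HNRNPR encodes the close paralogue of SYNCRIP and is likewise an RNA-binding protein of nucleus and cytoplasm. Its ID, ENSG00000125944.13, had 7 peaks in replicate 1 and 8 in replicate 2 on the minus strand of chromosome 1, from 23635776 to 23660101, with 5 shared in each. As in SYNCRIP, the strongest sites lay near the 3' end. The strongest, at 23636505 to 23636614, had a tally of 27 in replicate 1 and, at 23636513 to 23636556, a tally of 11 in replicate 2. A pair of neighbours had tallies of 9 and 10 at 23636445 to 23636484 and of 15 and 7 at 23636905 to 23636966. These 3 sites lay 0.689 to 1.16 kb from the 3' end of a span of 24.3 kb. The other reproducible sites were 9.26 kb from it, with tallies of 9 and 6, and 24.3 kb from it, with tallies of 11 and 9, so that 1 site of similar size in both libraries marked the 5' end of the span.

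HNRNPC encodes a core protein of the particles that package new transcripts, which binds runs of uridine. The peaks of ENSG00000092199.13 extended over 58.6 kb of the minus strand of chromosome 14, from 21677439 to 21736053, the longest span among the 10 genes. All 6 reproducible sites nevertheless lay within 2.54 kb of its 3' end. The strongest, at 21679237 to 21679304, had a tally of 22 in both libraries, with p-values of 2.83e-13 in replicate 1 and 3.67e-16 in replicate 2. Beside it stood sites with tallies of 7 and 7 at 21679447 to 21679466, 10 and 10 at 21679565 to 21679597, 15 and 8 at 21679681 to 21679726, and 10 and 6 at 21679969 to 21679986. Upstream of these sites replicate 1 had 8 peaks with tallies of 3 to 9 and replicate 2 had 4 with a tally of 3 each, and none of them overlapped. The long 5' part of HNRNPC thus held peaks in each library but no shared position.

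HNRNPK encodes a protein with KH domains that binds runs of cytidine and acts in transcription, splicing and translation. Its ID, ENSG00000165119.14, had 21 peaks in replicate 1, the most of the 10 genes in that library, and 11 in replicate 2, on the minus strand of chromosome 9 from 86583143 to 86593292. Summed tallies were 143 and 74, a log2 ratio of replicate 2 to replicate 1 of -0.95 and the most uneven of the 10 genes. All 9 reproducible sites lay 0.364 to 3.86 kb from the 3' end of a span of 10.15 kb. The strongest pair, at 86583669 to 86583712 in replicate 1 and 86583624 to 86583737 in replicate 2, had tallies of 11 and 18. The strongest peak of each library held 9.79% of the gene's tally in replicate 1 and 24.3% in replicate 2. Between 86587827 and 86593292, toward the 5' end, replicate 1 had 5 peaks with tallies of 4 to 6 and replicate 2 had none. The strongest unshared peaks of all 10 genes in replicate 1 were also in HNRNPK, at 86584257 to 86584313 and 86583143 to 86583213, with a tally of 14 each. The nearest replicate 2 peaks lay 19 and 289 nt away.

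HNRNPM, a splicing regulator, had 13 peaks in replicate 1 and 18 in replicate 2 under ENSG00000099783.7, on the plus strand of chromosome 19 from 8509891 to 8553976. Its sites were weak and far apart. The 8 reproducible peaks had tallies of 4 to 13 in replicate 1, lay 0.044 to 23.6 kb from the 3' end, and stood a median of 2272.5 nt apart, measured between midpoints, against 416.75 nt in HNRNPU and 339.5 nt in SYNCRIP. The strongest pair by p had tallies of 9 at 8536281 to 8536312 in replicate 1 and 8 at 8536276 to 8536312 in replicate 2, and a site at 8531119 to 8531184 had tallies of 13 and 6. In the 5' part of the span, up to 8530244, replicate 2 had 6 peaks with tallies of 3 to 6, and replicate 1 had 2, with tallies of 5 and 6, none of them shared.

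HNRNPL encodes a protein that binds CA repeats and regulates splicing. Under ENSG00000104824.11, on the minus strand of chromosome 19 from 39327158 to 39340466, 7 of its 8 peaks in replicate 1 and 8 of its 13 in replicate 2 were shared. Its strongest site was also its 3'-most one. It had a tally of 18 at 39327158 to 39327240 in replicate 1 and of 16 at 39327159 to 39327236 in replicate 2, with the centres of the deposited inner intervals at the same place. The other reproducible peaks were weak, with tallies of 3 to 9 in replicate 1, and replicate 2 alone had 3 peaks with tallies of 3 to 8 in the 5' part from 39336545 on. Another ID on the same strand, ENSG00000268083.1, had peaks within 1 HNRNPL peak in replicate 1 and within 5 in replicate 2, the strongest site included. Its bounds were narrower, and 1 of its replicate 2 peaks had a tally of 5 against 8 under HNRNPL. The HNRNPL peaks concerned carried 18 of the 50 tallies of replicate 1 and 50 of the 87 of replicate 2.

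HNRNPH1 and HNRNPF encode closely related proteins that bind runs of guanosine and regulate splicing. HNRNPH1 (ENSG00000169045.13) had 12 peaks in replicate 1 and 10 in replicate 2 on the minus strand of chromosome 5, from 179041424 to 179050157, with 7 shared in each. Its 3 sites nearest the 3' end, within 0.489 kb of it, had tallies of 13 and 8, 11 and 5, and 10 and 11. A site 3.88 kb from the end had tallies of 11 and 7, and each of the 3 sites further 5' had a tally of 4 in both libraries. HNRNPF (ENSG00000169813.12) had 6 peaks in each library within 1.505 kb of the minus strand of chromosome 10, from 43881562 to 43883066, the shortest span of the 10 genes. Its 3 reproducible sites had tallies of 18 and 12 at 43881976 to 43882036, 8 and 5 at 43881808 to 43881836, and 7 and 7 at 43881562 to 43881603. In both genes the peaks found in 1 library alone had tallies of at most 9.

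PTBP1, also known as hnRNP I, represses exons next to pyrimidine tracts. It had the fewest peaks of the 10 genes, 3 in each library, under ENSG00000011304.11 on the plus strand of chromosome 19 from 804668 to 811699. Only 1 site was shared, near the 5' end of the span, with a tally of 7 at 805014 to 805076 in replicate 1 and 15 at 805012 to 805136 in replicate 2. This number is not unusual for its size: of the 897 other IDs with 3 peaks in replicate 1, the median was also 1 reproducible peak.

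**Figure D3:**
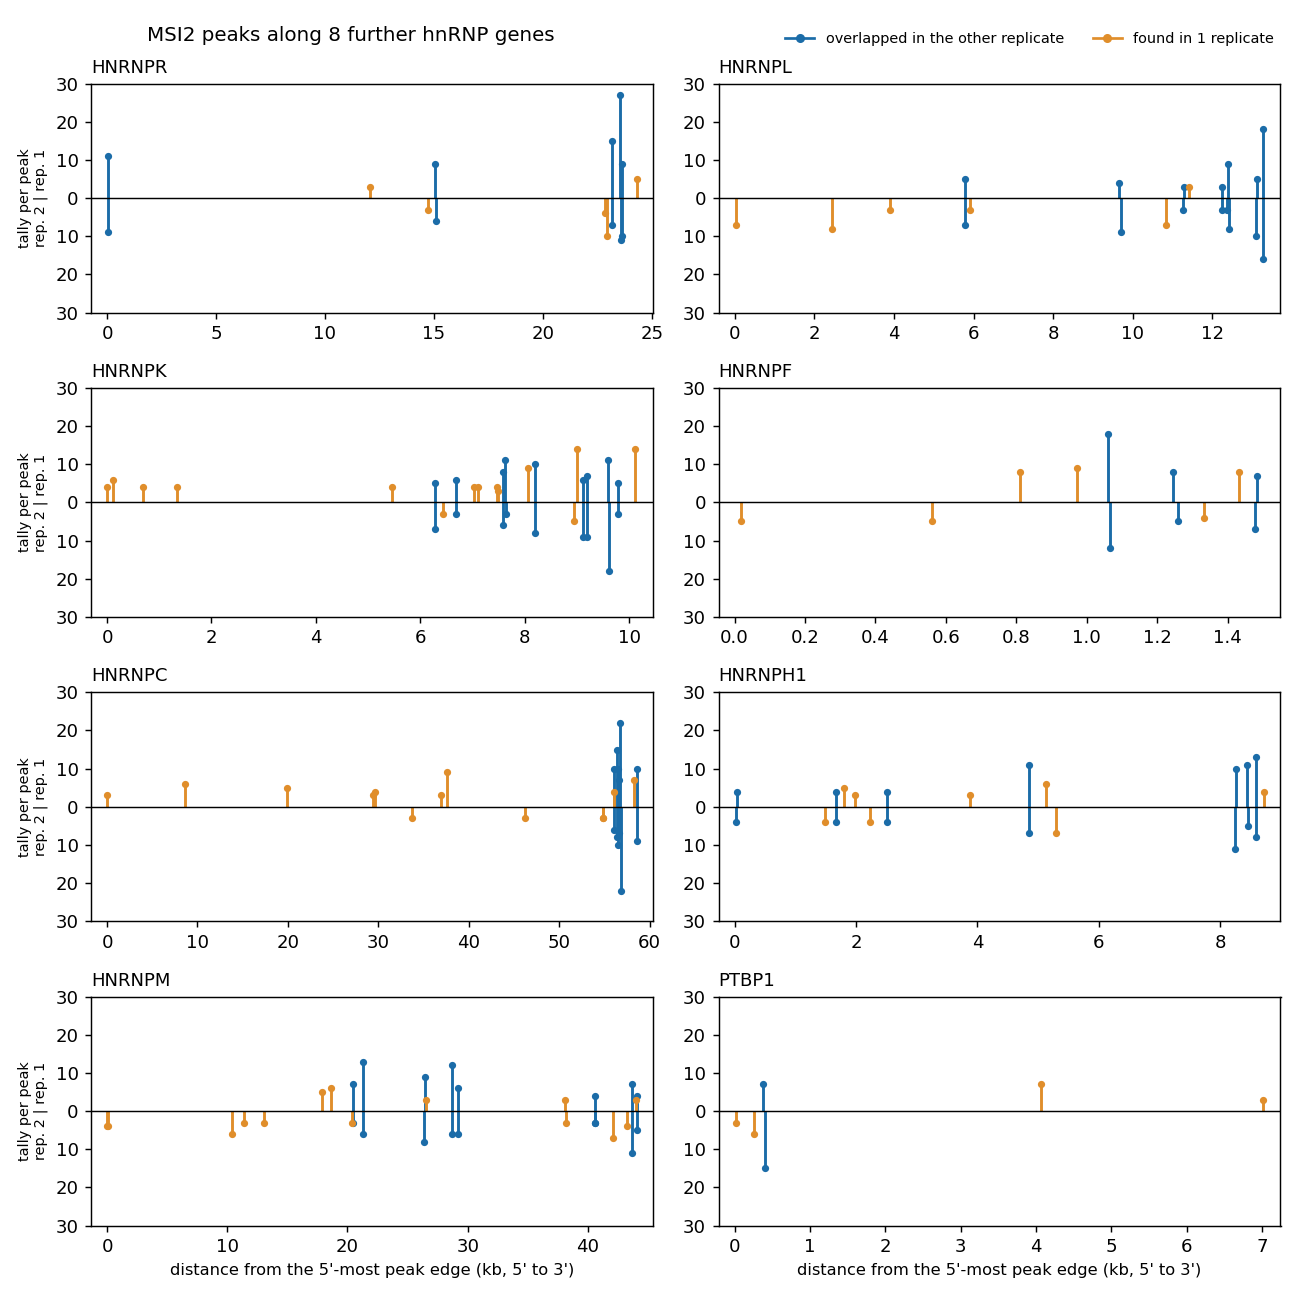
Peaks along the other 8 hnRNP genes, drawn by distance from the 5'-most peak edge in kb with the tally of replicate 1 upward and of replicate 2 downward (blue, overlapped in the other library; orange, found in 1 library). The horizontal scales differ; all 6 reproducible HNRNPC sites lie at the 3' end of a 58.6 kb span, while those of HNRNPM and HNRNPH1 are spread out.

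Over the 10 genes together, 29 of the 75 reproducible peaks, or 38.7%, lay in the 3'-most 10% of their gene's span, and without HNRNPU and SYNCRIP 23 of 46, or 50%, did, against 46.5% of the 7130 reproducible peaks of the 2375 IDs with 3 or more peaks in each library. The genes differed among themselves. All 6 such peaks of HNRNPC, 4 of 7 in HNRNPL and 3 of 5 in HNRNPR lay there, and none of HNRNPU or PTBP1 did. Spans are those of the peaks and include introns, and no exon positions of hg19 were used, so 3' untranslated regions cannot be separated from other parts of these genes.

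The peaks without a partner that had the lowest p in each library were 5 in each. In replicate 1, after the HNRNPK pair with a tally of 14 each, they were an HNRNPC peak at 21698483 to 21698526 with a tally of 9, the SYNCRIP peak at 86350238 with a tally of 9 and an HNRNPU peak at 245016708 to 245016712 with a tally of 8. The HNRNPC peak had no replicate 2 peak of the gene within 3770 nt, and those of SYNCRIP and HNRNPU had one 39 and 12 nt away. In replicate 2 they were an HNRNPR peak at 23637113 to 23637177 with a tally of 10, HNRNPL peaks at 39337967 to 39338055, 39329628 to 39329656 and 39340404 to 39340466 with tallies of 8, 7 and 7, and an HNRNPM peak at 8551933 to 8551960 with a tally of 7. The nearest replicate 1 peak of the gene lay 146 nt away for HNRNPR, 3267, 431 and 5704 nt away for HNRNPL and 1422 nt away for HNRNPM. Some of these were near misses of the overlap rule and others lay far from any peak of the other library. Ranking by p leaves out, among others, unshared peaks with a tally of 11 in replicate 1, at 86321918 to 86321942 of SYNCRIP and 245017688 to 245017741 of HNRNPU, and one with a tally of 8 in replicate 2, at 245027258 to 245027313 of HNRNPU.

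Set beside IDs with exactly as many peaks in replicate 1, HNRNPU and SYNCRIP had more reproducible peaks than any of the 8 others with 19 peaks, whose median was 9.5 and highest 12. This repeats what they were chosen for. HNRNPL had 7, against a median of 3 over 201 other IDs with 8 peaks, of which 191 had fewer than HNRNPL. HNRNPR had 5, against a median of 2 over 269 other IDs with 7 peaks, of which 234 had fewer. HNRNPK had 9, against a median of 10 over 11 other IDs with 21 peaks, of which 3 had fewer. HNRNPC had 6, against a median of 5 over 27 other IDs with 15 peaks, of which 14 had fewer. HNRNPM had 8 against a median of 5, HNRNPH1 7 against 5 and HNRNPF 3 against 2. Of the 8 genes other than HNRNPU and SYNCRIP, 6 thus lay above the median of IDs with as many replicate 1 peaks, PTBP1 equalled it and HNRNPK lay below it. Neither replicate 2 peaks nor tallies were matched. HNRNPL, HNRNPM and HNRNPR had more peaks in replicate 2 than in replicate 1. HNRNPK, HNRNPC and HNRNPH1 had fewer, and HNRNPF and PTBP1 had as many.

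The peaks of the 10 genes had higher tallies than the rest, with a median of 7 against 4 in replicate 1 and 6 against 4 in replicate 2, and among the other peaks of each library the share that was shared grew with each tally class. From a tally of 7 upward the shares are given first for all 10 genes. With tallies of 7 to 9, 64.5% of the hnRNP peaks of replicate 1 (46.9% to 78.9%, 31 peaks) and 61.2% of all other peaks were shared, and in replicate 2 76.5% of 34 hnRNP peaks and 69.8% of the others. With tallies of 10 to 14 the shares were 81.0% of 21 hnRNP peaks and 81.9% of the others in replicate 1, and 93.3% of 15 and 85.0% in replicate 2. All 12 hnRNP peaks of replicate 1 and all 7 of replicate 2 with a tally of 15 or more were shared, against 94.9% and 96.03% of the others. HNRNPU and SYNCRIP were chosen for shared peaks. Without them, 63.2% of 19 hnRNP peaks of replicate 1 and 76.2% of 21 of replicate 2 were shared at tallies of 7 to 9. At tallies of 10 to 14 the shares were 86.7% of 15 and 87.5% of 8. All 6 and all 4 peaks with a tally of 15 or more were shared. Weaker hnRNP peaks are given here without this pair of genes. With a tally of 3, 14.3% of 14 (4.01% to 39.9%) and 11.9% of all peaks outside the 10 genes were shared in replicate 1, and 40.9% of 22 (23.3% to 61.3%) and 15.5% in replicate 2. With a tally of 4 the shares were 37.5% of 16 (18.5% to 61.4%) and 24.6% in replicate 1, and 30% of 10 (10.8% to 60.3%) and 34.7% in replicate 2. With tallies of 5 to 6 they were 46.7% of 15 (24.8% to 69.9%) and 39.0% in replicate 1, and 64.3% of 14 (38.8% to 83.7%) and 50.3% in replicate 2. Of these 6 intervals only that for a tally of 3 in replicate 2 left out the value of the other peaks. The intervals take peaks as independent, which peaks of 1 gene are not. The 9 shared peaks of that class came from HNRNPK, HNRNPL and HNRNPM alone. A pair of them in HNRNPM overlapped the same replicate 1 peak, at 8550489 to 8550510.

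**Figure D4:**
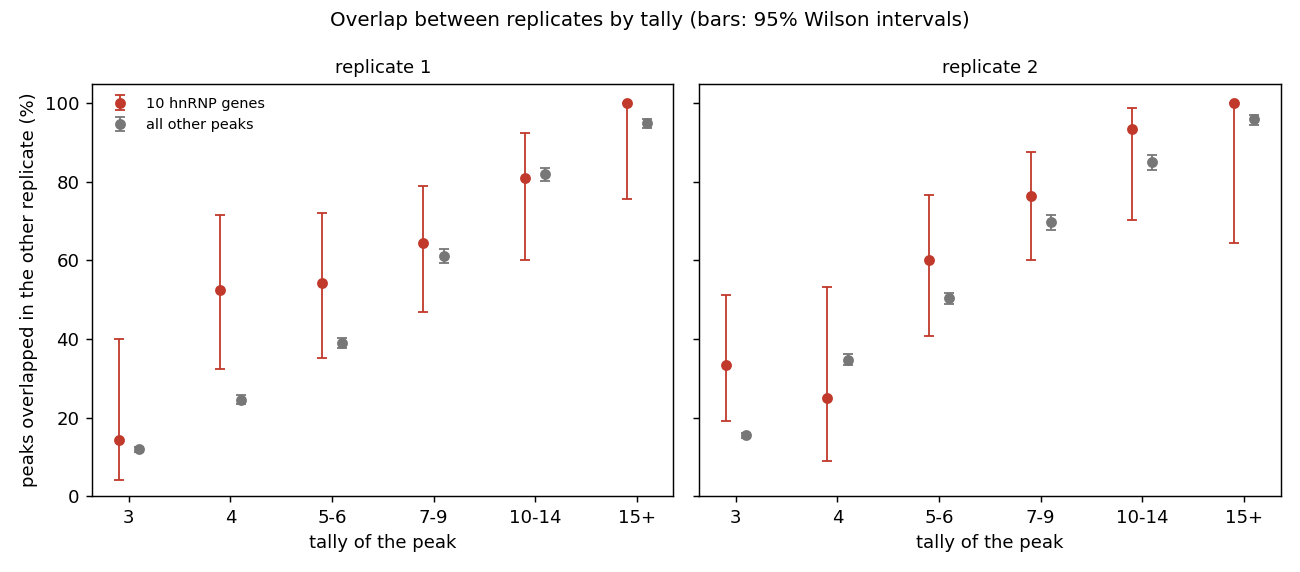
Share of peaks overlapped in the other library (percent) by tally class, for the 10 hnRNP genes (red; HNRNPU and SYNCRIP, chosen for shared peaks, included) and all other peaks (grey) in replicate 1 (left) and replicate 2 (right), with 95% Wilson intervals that cover counting error only. From a tally of 7 upward the intervals of the hnRNP genes include the value of the other peaks in both libraries. Among lower tallies they leave it out at a tally of 4 in replicate 1 (52.4%, 32.4% to 71.7%, against 24.6%). They also leave it out at a tally of 3 in replicate 2 (33.3%, 19.2% to 51.2%, against 15.5%), and include it in the other classes.

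In the strictest lists the hnRNP share was the lower one, though on few peaks. When each list was limited to its strongest 10% by p, 25 hnRNP peaks stayed in replicate 1 and 26 in replicate 2, and 40.0% and 38.5% of them were shared, against 55.1% and 57.1% of all peaks. A partner then also had to be in the strongest 10% of its own list. These shares rest on 10 shared peaks in each library, HNRNPU and SYNCRIP included, and no interval was computed for them. In both libraries, at tallies of 10 to 14 and of 15 or more, the median deposited p of the hnRNP peaks was higher than that of other peaks: 1.62e-06 against 8.02e-07 at 10 to 14 in replicate 1, 5.51e-11 against 9.46e-12 at 15 or more in replicate 1, 1.24e-06 against 8.54e-07 at 10 to 14 in replicate 2, and 1.93e-11 against 2.81e-12 at 15 or more in replicate 2. Without HNRNPU and SYNCRIP the value at 10 to 14 in replicate 1 was 5.99e-07, below that of the other peaks. The part of this in the lower share was not tested.

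Within the shared sites, neither library had the higher tally throughout. The 10 genes had 77 overlapping pairs of peaks, of which 38 had the higher tally in replicate 1, 24 in replicate 2, and 15 were equal. The median log2 ratio of replicate 2 to replicate 1 was 0.00, against -0.24 over the 9577 other distinct pairs, in lists whose summed tallies were lower in replicate 2. Single pairs differed more. The lowest log2 ratios were -1.87 for an HNRNPK pair of 11 and 3, whose replicate 2 peak was 1 nt wide, and -1.81 for the HNRNPU pair of 28 and 8. The highest, 1.70, set the HNRNPU replicate 2 peak with a tally of 13 against each of 2 replicate 1 peaks with a tally of 4. That site was split in replicate 1, so the ratio overstates its difference. Across the 77 pairs log2 tallies correlated at a Pearson r of 0.56, against 0.68 across the other pairs. This is a description over peaks that share 2 libraries and 10 genes. The median distance between the centres of the deposited inner intervals was 6.5 nt, against 7 nt over the other pairs.

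**Figure D5:**
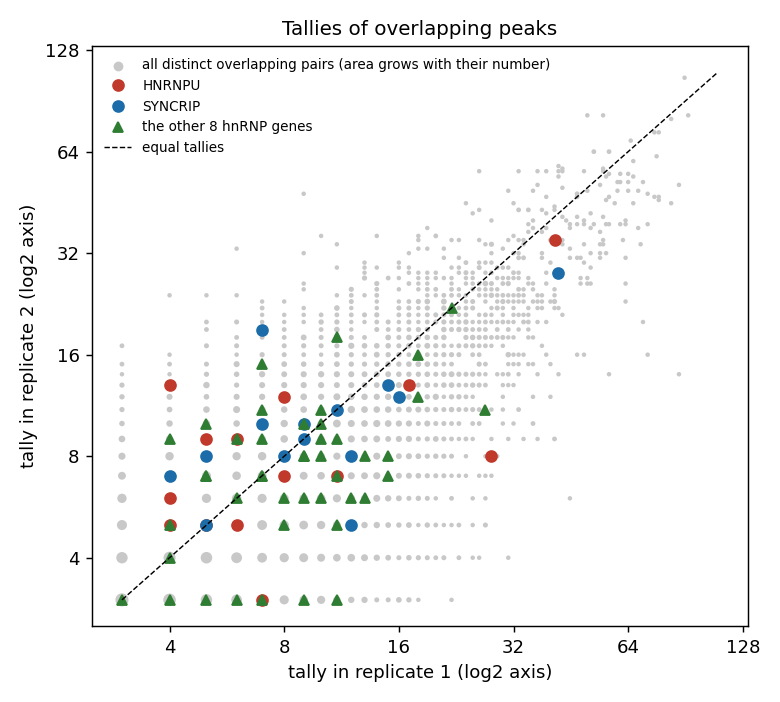
Tally in replicate 1 (horizontal) against replicate 2 (vertical) for overlapping pairs of peaks on log2 axes, with all distinct pairs in grey, HNRNPU in red, SYNCRIP in blue, the other 8 hnRNP genes as green triangles and equal tallies as the dashed line. The strongest pairs of HNRNPU (41 and 35) and SYNCRIP (42 and 28) lie below the line of equality.

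The balance between the libraries was compared for chromosome 19 alone, which holds 3 of the genes. Summed tallies were higher in replicate 2 for all 3 genes on chromosome 19, with 88 in replicate 2 and 82 in replicate 1 for HNRNPM, 87 and 50 for HNRNPL, and 24 and 17 for PTBP1. They were lower in replicate 2 for 6 of the 7 genes on other chromosomes, HNRNPU being the exception. In HNRNPL, peaks that a second gene ID also touched carried 18 of the 50 tallies in replicate 1 and 50 of the 87 in replicate 2. Of all peaks, 3.97% in replicate 1 and 5.89% in replicate 2 lay on chromosome 19. The part of this in the gene-level differences was not tested.

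The IDs most like the leading pair were taken as those with the same number of reproducible peaks. For HNRNPU these were ENSG00000094916.9 at 54624954 to 54651385 of chromosome 12 and ENSG00000113441.11 at 96315323 to 96373020 of chromosome 5, with summed tallies over both libraries of 432 and 436, against 393 in HNRNPU. They differed from it in layout, with 26.7% and 60% of their 15 reproducible peaks in the 3'-most 10% of the span. For SYNCRIP the only one was ENSG00000122566.16 at 26229990 to 26237078 of chromosome 7, with 21 peaks in each library and a summed tally of 551, against 358 in SYNCRIP, and none of its 14 reproducible peaks lay in the 3'-most 10% of a span of 7.09 kb. The likeness is in this count alone, over 2 libraries. These IDs were not matched to gene symbols, so other hnRNP genes may be among them.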

How the data were processed

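MSI2 CLIP-seq peaks from NB4 cells were used, 1 list for each of 2 replicates. The submitters' processing notes name Bowtie 1.0.0, STAR 2.3.0e, cutadapt and build hg19, and the names of the deposited lists record trimming and removal of duplicates. No peak caller is named in the sources used here. The deposited p-value per peak is that of the authors' peak calling, and it served only to rank and filter within a list. The tally, the number that ends a peak's name, was used as deposited.

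Peaks of the 10 members were taken by gene ID. Symbols came with the choice of members, and all 10 are RefSeq symbols (GRCh38.p14) on the same chromosome. The members and lists were chosen with earlier results of these data known. Named were all members, each one's strongest pair by its weaker p, the 5 strongest unshared peaks per library, second gene IDs, and IDs with equal reproducible counts. Planned lists of further hnRNP and SR genes and a motif search were not used here. Overlaps were computed with Python 3.11.15, NumPy 2.4.6, pandas 2.3.3 and SciPy 1.17.1, figures with matplotlib 3.10.9, and the overlap step was tested on simulated data. Alternatives covered the overlap rule, stricter lists, merged peaks, a tally of 5 or more, second gene IDs and each replicate alone.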

Additional observations from a re-analysis of the deposited data

How the results depend on the processing

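All 10 genes kept a reproducible peak under each alternative except the strongest 10% by p, which left 7. Of the alternatives, a reciprocal overlap of 50% lowered the reproducible peaks to 44 and the shares to 35.8% in replicate 1 and 35.0% in replicate 2, against 26.8% and 27.5% of all peaks, by construction. The strongest 10% left a mean of 25.5 peaks and a tally of 386 per library, 10 reproducible peaks, and shares of 40.0% and 38.5%. The stronger 50% raised the share of replicate 2 to 70.6%, against 46.3% of all peaks, a share that also rose, from 37.3%. In replicate 1 the share was then 64.9%, against 44.5% of all peaks. The cause was not tested. Leaving out 1 replicate gave 123 peaks either way and tallies of 862 to 1017. Leaving out peaks that a second gene ID also covers, or asking for a partner under the same ID, both chosen after seeing the data, left 70 and 75 reproducible peaks. The share in the 3'-most 10% ran from 36.1% to 43.2%. No paired analysis was possible because both libraries belong to 1 group. Most peaks rest on tallies under 10, and depth is unknown.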

Other observations

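Some hnRNP sites had edges at exactly the same base in both libraries. Of the 77 overlapping pairs, 17, or 22.1%, shared a start or an end, against 13.4% of the 9577 other distinct pairs. In SYNCRIP the 3 pairs at 86321235, 86321418 and 86321488 each shared their lower coordinate, which is the 3' edge on the minus strand. Their 5' edges differed by a few bases. In HNRNPC, also on the minus strand, the same held for pairs at 21679565 and 21679969, and another pair there shared its 5' edge at 21679726. In HNRNPU, on the minus strand as well, peaks of both libraries had their 3' edge at 245020900 and at 245026676. At 245026676 the replicate 2 peak reached to 245026732 and the replicate 1 peak only to 245026679.

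Very narrow peaks were also more frequent over the 10 genes pooled, HNRNPU included. A width of 5 nt or less was found in 8 of 123 peaks in each library, or 6.50%, against 2.16% and 3.07% of the other peaks. HNRNPU, with 19 of the 123 peaks in replicate 1 and 29 in replicate 2, held 4 of these in replicate 1, with tallies of 4 to 8. It held 5 in replicate 2, with a tally of 3 each. Replicate 1 had the others in SYNCRIP (1), HNRNPK (2) and HNRNPL (1). Replicate 2 had 1 each in HNRNPK, HNRNPM and HNRNPL. The higher share thus rests in large part on HNRNPU, which was chosen by the readout. No share was computed without it, so the excess is not shown for the other genes. The strongest narrow HNRNPU peak, at 245016708 to 245016712 in replicate 1, had a tally of 8 and was not shared, though a replicate 2 peak lay 12 nt away. Both observations were made after seeing the data and were not tested, and whether such edges lie at exon boundaries was not examined.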
